A study of Mus musculus with 4 samples.

Results

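Cholesterol is made from acetyl-CoA by a chain of enzymes, and the 8 genes described here, *Hmgcs1*, *Mvd*, *Idi1*, *Fdps*, *Fdft1*, *Sqle*, *Lss* and *Cyp51*, encode enzymes along that chain. They were chosen by name, because *Fdps* was already known to be lower in mesenchymal cells of the RA callus at 7 days post fracture (dpf), to see whether the same difference is found along the pathway and in other cell types. All 8 were found among the 32285 genes of the deposited tables. The values that led to the choice are those of mesenchymal cells at 7 dpf, so these are given as a description.

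The data are 4 single-cell RNA-seq libraries of fracture callus from wild-type C57BL/6J mice that were 3 months old. Control mice received Vehicle and RA mice received K/BxN serum, which carries antibodies that bring on arthritis, and callus was taken at 4 or 7 dpf (control_4d, control_7d, RA_4d and RA_7d). The mice were male, the fractured bone was the tibia, and callus of several mice was pooled into 1 preparation per library, so that mice within a group cannot be told apart. With 1 library per group there were no replicates, no test between RA and control was possible, and library preparation and condition cannot be told apart. All intervals below are 95% intervals that cover counting error only.

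The limits on UMIs, features and mitochondrial share from the study's methods left 25479 of 34038 barcodes as cells, between 4110 and 8223 per library, with a median of 16093.5 to 17631.5 UMIs per cell. A UMI stands for 1 captured mRNA molecule. Any pair of libraries shared between 5 and 15 cell barcodes. Cells were clustered after integration of the libraries, with the 8 genes and the other sterol and lipid genes left out of the genes used for clustering, and clusters were named from marker genes. Mesenchymal-like cells (committed mesenchymal progenitor-like, fibroblast precursor-like, fibroblast-like and osteochondral progenitor-like clusters) were 860 cells of control_4d, 716 of RA_4d, 3023 of control_7d and 3736 of RA_7d. Their 7 lineage markers, among them *Prrx1*, *Pdgfra* and *Col1a1*, summed to between 39557 and 61070 CPM, the UMIs of a gene scaled to a fixed total of all UMIs of the cells summed, against 157 to 811 CPM in macrophages and monocytes. In mesenchymal cells, 6 myeloid markers summed to 130 to 335 CPM and 4 erythroid markers to 22.7 to 483 CPM, with RA_4d the lowest for both. At 7 dpf, 1 of the 6 myeloid and 1 of the 4 erythroid markers were higher in RA than in control. The 5 neutrophil markers in mesenchymal cells summed to 20.4 CPM in control_4d, 182 in RA_4d, 76.9 in control_7d and 12.5 in RA_7d, with 0 of 5 higher in RA at 7 dpf. The part of such foreign RNA in the values below was not tested.

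Cells both take up cholesterol from lipoproteins and make it. When the membrane of the endoplasmic reticulum is low in sterol, the transcription factor SREBP2, the product of *Srebf2*, is carried by SCAP to the Golgi, cut by proteases there and sent to the nucleus, where it raises the genes of the pathway. INSIG proteins hold SCAP back when sterol is plentiful, and the oxysterol receptors LXR raise genes for sterol efflux. In the order of the pathway, *Hmgcs1* makes HMG-CoA, *Mvd* makes isopentenyl pyrophosphate from a phosphorylated mevalonate, *Idi1* turns it into its isomer, and *Fdps* joins these units to farnesyl pyrophosphate, from which both sterols and protein prenyl groups are made. *Fdft1* (squalene synthase) commits farnesyl pyrophosphate to sterols, *Sqle* oxidizes squalene, *Lss* closes its rings to give lanosterol, and *Cyp51* removes a methyl group from lanosterol.

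In GENCODE M21 (GRCm38, the same assembly as mm10), *Hmgcs1* lies on chromosome 13 from 119690379 to 119708260 and *Idi1* on the same chromosome from 8885501 to 8892451. *Mvd* lies on chromosome 8 from 122433601 to 122443422, *Fdps* on chromosome 3 from 89093588 to 89101959 and *Fdft1* on chromosome 14 from 63145150 to 63179578. *Sqle* lies on chromosome 15 from 59315077 to 59331192, *Lss* on chromosome 10 from 76531588 to 76557138 and *Cyp51* on chromosome 5 from 4081145 to 4104746. The members are thus spread over 7 chromosomes.

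The letters of the promoters are shown for 3 of the members. RefSeq promoters (build GRCm38.p6, the 250 bases before the transcription start, 5′ to 3′ on the gene's strand) were on hand for *Hmgcs1*, *Mvd*, *Idi1*, *Lss* and *Cyp51*. The 3 below are given as far as they lie outside exons of GENCODE. Capitals mark a core of the sterol regulatory element to which SREBP2 binds (searched as TCACNCCAC) and the CCAAT box to which its partner NF-Y binds (searched as CCAAT), each on both strands, so that ATTGG is a CCAAT box on the opposite strand. The *Cyp51* window has 201 bases outside exons, which hold neither marked motif and are not shown. The *Idi1* window has 0 such bases. The stretches are chr13:119690101-119690350 (+) for *Hmgcs1*, chr8:122443423-122443672 (-) for *Mvd* and chr10:76531355-76531587 (+) for *Lss*.
Hmgcs1: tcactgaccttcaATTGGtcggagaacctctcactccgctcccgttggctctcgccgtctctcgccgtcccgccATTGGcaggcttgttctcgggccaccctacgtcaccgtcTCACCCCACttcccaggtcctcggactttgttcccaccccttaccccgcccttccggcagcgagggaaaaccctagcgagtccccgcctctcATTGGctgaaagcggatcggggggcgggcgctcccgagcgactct
Mvd: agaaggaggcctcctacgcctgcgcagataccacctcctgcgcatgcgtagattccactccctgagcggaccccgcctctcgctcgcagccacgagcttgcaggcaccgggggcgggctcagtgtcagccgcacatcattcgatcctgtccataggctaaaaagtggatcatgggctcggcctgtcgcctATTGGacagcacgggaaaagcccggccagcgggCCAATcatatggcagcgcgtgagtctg
Lss: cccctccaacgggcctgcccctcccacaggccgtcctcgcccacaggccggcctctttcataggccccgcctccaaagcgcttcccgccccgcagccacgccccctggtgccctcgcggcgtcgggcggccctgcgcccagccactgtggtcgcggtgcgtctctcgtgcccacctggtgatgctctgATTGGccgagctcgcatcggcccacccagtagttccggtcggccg

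The sterol element in these letters was found in 1 of the 5 member promoters, that of *Hmgcs1*, where it began 137 bases before the start and overlapped no other searched motif, and in 1.05% of 32851 promoters of the same length. A CCAAT box was found in 5 of 5 member promoters and in 33.85% of all promoters. A GC box (searched as GGGCGG, both strands) was found in 5 of 5 and in 32.7% of all. All 250 bases of the *Idi1* window and the last 49 of the *Cyp51* window lie in GENCODE exons. The CCAAT boxes of *Idi1* and *Cyp51* and the GC box of *Idi1* fall in those bases. Exons were not left out of these counts, for the members or for all promoters. Among the other genes of cholesterol synthesis listed below, 11 had a promoter on hand, of which 0 held the sterol element and 10 a CCAAT box. A match is a run of letters and not a measured binding site, and the lack of one says only that these letters are not in this window.

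In mesenchymal cells, each of the 8 genes was lowest in RA_7d. The values that follow are levels in CPM over all mesenchymal cells of a library. *Fdps* was at 49.5 CPM in control_4d, 37.5 in RA_4d, 55.6 in control_7d and 17.8 in RA_7d. It was 3.12-fold lower in RA than in control at 7 dpf (RA to control ratio 0.321, interval 0.303 to 0.339) and 1.32-fold lower at 4 dpf (ratio 0.757, interval 0.694 to 0.826). *Fdps* was the only one of the 8 whose interval lay below 1 at 4 dpf.

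The 2 enzymes just before *Fdps* differed in size. *Idi1* was at 12.8 CPM in control_4d, 15.05 in RA_4d, 14.3 in control_7d and 5.21 in RA_7d, a ratio of 0.364 at 7 dpf (0.327 to 0.406). *Mvd* was at 7.12, 6.40, 6.75 and 3.97 CPM in the same order, a ratio of 0.588 (0.513 to 0.673). The intervals of these ratios do not overlap, so *Mvd* was less far below its control level than *Idi1* as far as counting error goes.

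*Hmgcs1*, at the head of the chain, had levels of 59.4 CPM in control_4d, 60.7 in RA_4d, 58.5 in control_7d and 38.3 in RA_7d. Its ratio at 7 dpf was 0.654 (0.626 to 0.684), the highest of the 8. The 3 earlier or control values lay within 3 CPM of each other, and RA_7d stood apart from them.

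On the sterol side of the branch point, *Fdft1* was at 12.0 CPM in control_4d, 12.0 in RA_4d, 13.5 in control_7d and 6.40 in RA_7d, a ratio of 0.474 at 7 dpf (0.428 to 0.524). *Sqle* was at 17.8, 18.6, 18.1 and 6.10 CPM in the same order, a ratio of 0.336 (0.304 to 0.371). *Lss*, the least counted of the 8 with 71 UMIs in each 4 dpf library, was at 2.61, 3.20, 3.67 and 1.61 CPM, a ratio of 0.439 (0.358 to 0.537). *Cyp51* was at 32.5 CPM in control_4d, 37.5 in RA_4d, 32.8 in control_7d and 14.7 in RA_7d, a ratio of 0.448 (0.419 to 0.479). At 7 dpf, then, the largest differences stood at *Fdps*, *Sqle* and *Idi1*, and the smallest at *Hmgcs1* and *Mvd*, the first member and the member that follows it.

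**Figure D1:**
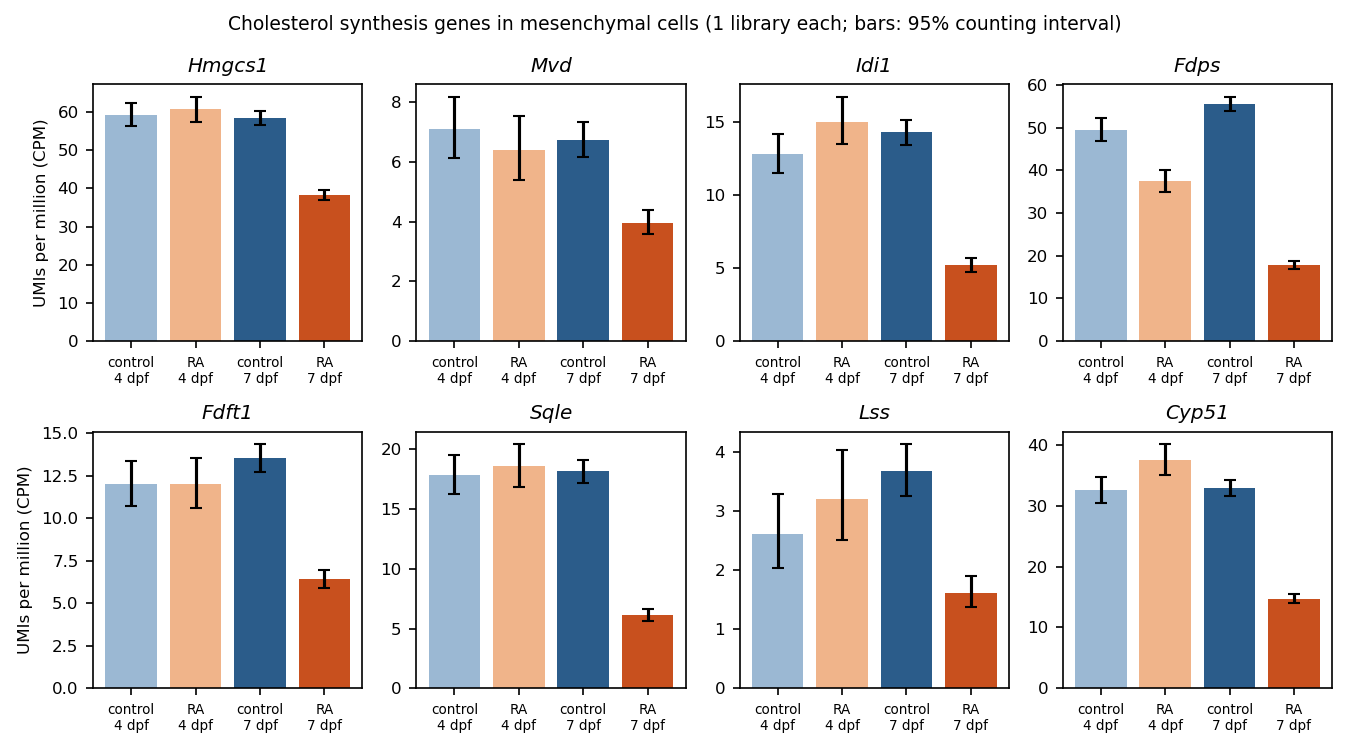
Level of each of the 8 genes in mesenchymal cells (vertical axis, CPM, from 0) in the 4 libraries (horizontal axis); bars are 1 library each and whiskers the 95% counting interval. In each panel the RA 7 dpf bar is the lowest, from 38.3 CPM for Hmgcs1 down to 1.61 CPM for Lss.

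The call used for counts is a difference of at least 1.5-fold on log2(CPM + 1), among genes for which the compared libraries held 50 UMIs or more. On that scale the difference at 7 dpf was -0.60 for *Hmgcs1*, -0.64 for *Mvd*, -1.30 for *Idi1*, -1.59 for *Fdps*, -0.97 for *Fdft1*, -1.43 for *Sqle*, -0.84 for *Lss* and -1.11 for *Cyp51*. The median was -1.04, against -0.04 over the 17153 genes with enough UMIs. Thus 8 of 8 were called lower in RA, where 5.03% of all such genes were called lower and 4.59% higher. This is the contrast that led to the choice of the genes, so nothing is read from the count. *Hmgcs1* at -0.60 lay just inside the threshold of 0.58 in size, and with a pseudocount of 10 CPM in place of 1 the count was 4 of 8, where 1.52% of genes were called lower on that scale.

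At 4 dpf, 0 of 8 were called lower and 0 higher, where 2.89% of 13979 genes were called lower and 4.06% higher. The log2 differences ran from -0.39 (*Fdps*) to 0.22 (*Lss*), with a median of 0.04 against 0.02 over all these genes. *Idi1*, with a ratio of 1.18 (1.01 to 1.37), and *Cyp51*, with a ratio of 1.15 (1.05 to 1.27), were slightly higher in RA.

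The same values can be read along time. In control mesenchymal cells, the log2 difference of 7 dpf from 4 dpf ran from -0.07 to 0.37 over the 8 genes. In RA mesenchymal cells it ran from -1.46 (*Sqle*) to -0.57 (*Mvd*), and all 8 were below 0. The summed level of the 8 genes was 194 CPM in control_4d, 191 in RA_4d, 203 in control_7d and 94.1 in RA_7d. RA stood at 0.985 times the control level at 4 dpf (0.946 to 1.03) and at 0.463 times at 7 dpf (0.451 to 0.475). The sum weighs the genes by their counts, so *Hmgcs1*, *Fdps* and *Cyp51* make up most of it. The pooled values also mix classes that differed in level and, at 4 dpf, in direction, as given below. Osteochondral progenitor-like cells, 105 in control_7d and 72 in RA_7d, were absent from both 4 dpf libraries.

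**Figure D2:**
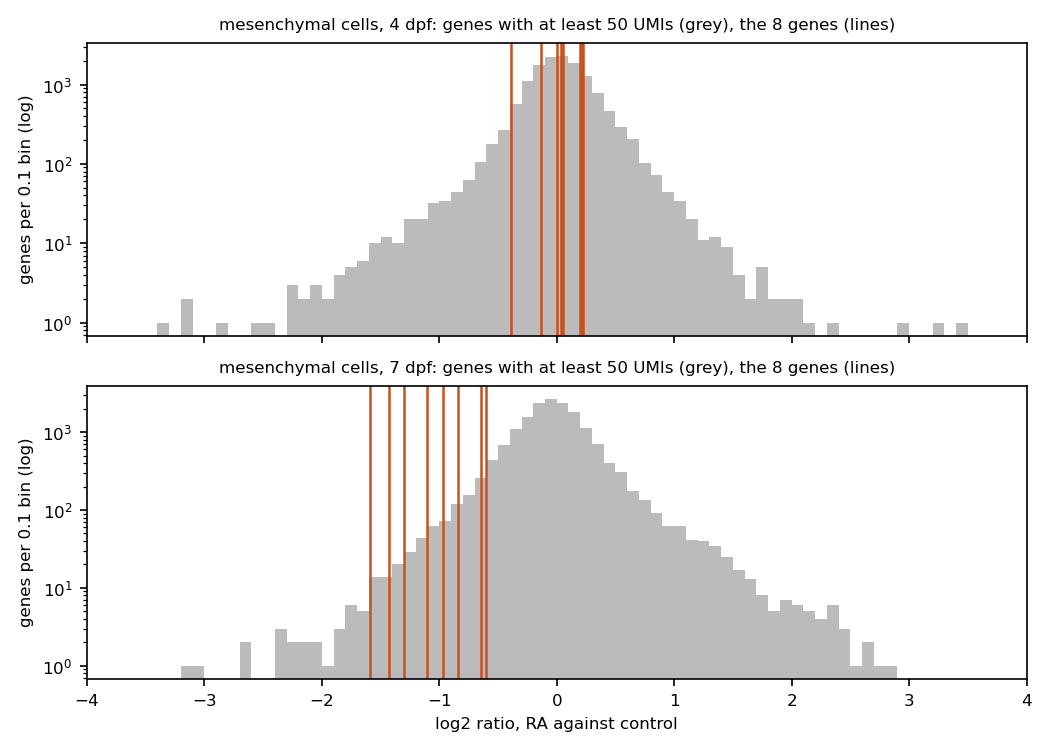
Number of genes (vertical axis, log scale) by the log2 ratio of RA to control in mesenchymal cells (horizontal axis, bins of 0.1) at 4 dpf (top) and 7 dpf (bottom), with lines at the 8 genes. At 4 dpf the lines lie between -0.39 and 0.22, and at 7 dpf between -1.59 and -0.60.

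Within mesenchymal cells, the committed mesenchymal progenitor-like cells had the lowest ratio at 7 dpf. Their summed level was 257 CPM in control_4d, 235 in RA_4d, 224 in control_7d and 93.3 in RA_7d, a ratio of 0.416 at 7 dpf (0.399 to 0.433). All 8 genes were called lower in them, with log2 differences from -1.77 to -0.72, where 4.05% of genes were. Fibroblast precursor-like cells had 124, 159, 132 and 72.4 CPM in the same order, a ratio of 0.550 (0.518 to 0.585), and 5 of 8 genes were called lower, where 8.29% of genes were. In fibroblast-like cells the sum was 175, 139, 110 and 80.3 CPM, a ratio of 0.731 (0.688 to 0.777), and 2 of 8 genes were called lower, where 3.69% were. These 3 ratio intervals do not overlap, so the size of the difference at 7 dpf was not the same in the 3 classes as far as counting error goes. In control, too, the fibroblast-like sum was lower at 7 dpf than at 4 dpf, at 110 and 175 CPM. At 4 dpf the classes went different ways. The median log2 difference of the 8 genes was then -0.02 in committed mesenchymal progenitor-like, 0.39 in fibroblast precursor-like and -0.28 in fibroblast-like cells.

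Osteochondral progenitor-like cells, 105 in control_7d and 72 in RA_7d and none in the 4 dpf libraries, had a summed level of 780 CPM in control and 588 in RA, a ratio of 0.754 (0.705 to 0.806). Their level was the highest of the classes in both 7 dpf libraries. In these cells 3 of 8 genes were called lower, where 539 of 8072 genes were. Because the classes differ in level and in their share of the cells (committed mesenchymal progenitor-like cells were 1504 of 3023 mesenchymal cells in control_7d and 1166 of 3736 in RA_7d), the mix of classes enters the pooled ratio. With the class mix of control_7d given to RA_7d, the log2 difference of the summed level in mesenchymal cells was -0.91 in place of -1.10, and with the classes weighted equally it was -0.74, with 5 of 8 genes called lower, where 2.47% of genes were under that weighting.

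The difference at 7 dpf can also be described per cell, by the proportion of cells with a UMI of these genes. These shares come from the same UMIs and the contrast that led to the choice, so they are no further finding. Their intervals treat the cells of a library as independent units. With each cell thinned to 4000 UMIs, 58.2% of mesenchymal cells in control_7d (exact binomial interval 56.4 to 59.9) and 71.9% in RA_7d (70.4 to 73.3) held 0 UMIs of the 8 genes, and 15.9% and 5.67% held 2 or more. Without thinning the shares with 0 were 12.2% and 21.6%, at a median depth of 24621 and 25030.5 UMIs. These enzymes are made in every cell type, so there was no cell type without them to set a background share.

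The genes of cell division were lower in RA mesenchymal cells too. Of 14 cell cycle genes, 13 were called lower at 7 dpf (median -0.91), where 5.03% of all genes were. At 4 dpf 0 were called lower (median 0.13), where 2.89% of all genes were. The proportion of mesenchymal cells with a UMI of *Mki67*, *Top2a*, *Cdk1*, *Cenpf*, *Birc5* or *Hmmr* was 47.5% in control_7d and 32.2% in RA_7d. Among cells without such a UMI, the summed level of the 8 members was 194 CPM in control_7d and 88.7 CPM in RA_7d, a ratio of 0.458 (0.442 to 0.475). Among cells with one it was 212 and 104 CPM, a ratio of 0.488 (0.469 to 0.508). A cell without such a UMI may still have been dividing, since capture of mRNA is partial and depends on depth. The part of cell division in the difference of the members was not tested.

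The remaining enzymes of the pathway were mostly lower as well at 7 dpf. Of 13 other cholesterol synthesis genes, 5 were called lower and 0 higher, 12 had a log2 difference below 0, and the median was -0.50. The median over all genes with enough UMIs was -0.04, so more of them lay below 0 than above it. Of all genes, 5.03% were called lower and 4.59% higher. *Msmo1*, which removes methyl groups after *Cyp51*, was at 16.4 CPM in control_7d and 7.98 in RA_7d, a log2 difference of -0.96. *Pmvk*, the kinase that acts just before *Mvd*, was at 20.6 and 12.4 CPM (-0.69), and *Dhcr7*, which makes the last reduction of one branch, at 6.90 and 4.26 CPM (-0.59). The exception was *Hsd17b7*, at 12.2 and 12.7 CPM. At 4 dpf, 0 of the 13 were called in either direction, with a median of -0.08. Of all genes, 2.89% were called lower and 4.06% higher at that time.

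Of 6 genes that regulate SREBP, *Srebf2* was called lower at 7 dpf, at 40.6 CPM in control and 26.4 in RA (-0.60), just past the threshold. Of all genes, 5.03% were called lower. *Insig1*, itself raised by SREBP2, was at 24.96 and 18.6 CPM (-0.41). *Scap*, *Insig2*, *Mbtps1* and *Mbtps2*, which carry, hold or cut the SREBP proteins, had log2 differences from -0.10 to 0.09.

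Genes that bring sterol into the cell or move it within were divided. *Scarb1*, a receptor for high-density lipoprotein, was at 16.9 CPM in control_7d and 7.72 in RA_7d (-1.04), and *Stard4*, which carries sterol between membranes, at 15.8 and 7.54 CPM (-0.97). *Vldlr*, which binds triglyceride-rich lipoproteins, was higher, at 15.1 and 39.2 CPM (1.32). Of the 8 genes of this list, 2 were thus called lower and 1 higher, with a median of -0.05. Of all genes, 5.03% were called lower and 4.59% higher.

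Of 9 genes of sterol efflux and storage, 0 were called lower and 1 higher at 7 dpf, with a median of 0.36. Of all genes, 5.03% were called lower and 4.59% higher. *Abca1*, which passes cholesterol to apolipoproteins at the plasma membrane, was at 74.3 CPM in control_7d and 153 in RA_7d (1.04). *Abcg1*, a second efflux transporter, was at 7.61 and 11.9 CPM (0.58), just short of the threshold, and *Mylip*, which marks lipoprotein receptors for breakdown, at 84.7 and 109 CPM (0.36). At 4 dpf, *Abcg1* (3.74 and 7.25 CPM) and *Ch25h* (0.624 and 1.67 CPM) were called higher and 0 of the 9 lower, where 4.06% and 2.89% of all genes were.

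Fatty acid synthesis genes and genes of the isoprenoid branch, outside sterol synthesis, differed less. Of 12 fatty acid synthesis genes, *Fads1*, a desaturase, was called lower at 7 dpf, at 26.6 and 15.4 CPM (-0.75), 0 were called higher, and the median was -0.29. Of all genes, 5.03% were called lower and 4.59% higher. *Fasn*, the fatty acid synthase, was at 33.9 and 26.9 CPM (-0.32) and *Srebf1* at 17.3 and 15.7 CPM (-0.14). Of 11 genes of the isoprenoid branch (prenyl transferases and the enzymes of ubiquinone and dolichol synthesis), 0 were called in either direction, 10 were below 0, and the median was -0.21. Over all genes the median was -0.04, so a value below 0 was common. These lists, like the members, were written with earlier results of these data known and share the contrast that led to the choice, so the counts are a description.

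**Figure D3:**
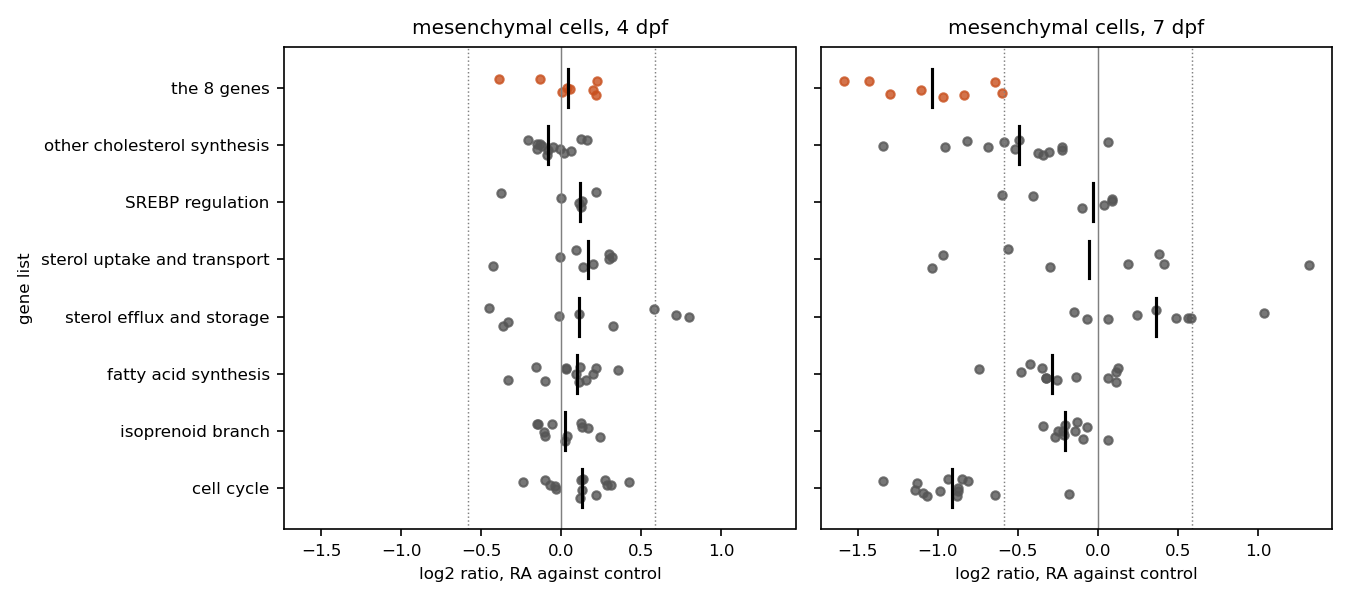
Log2 ratio of RA to control in mesenchymal cells (horizontal axis) for each gene of 8 lists (rows) at 4 dpf (left) and 7 dpf (right); points are genes, short black lines medians and dotted lines the 1.5-fold threshold. At 7 dpf the medians are -1.04 for the 8 genes, -0.50 for other cholesterol synthesis, -0.91 for the cell cycle and 0.36 for sterol efflux and storage.

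Outside the mesenchymal cells, which led to the choice, the 8 genes were lower at 7 dpf in most cell types. All cell types of a library share its preparation, so they are not replicates of the condition. Over the 11 other cell types the ratio of the summed level had an interval below 1 in 8 at 7 dpf, above 1 in 0, and spanning 1 in 3. At 4 dpf it was below 1 in 6, above 1 in 3 and spanned 1 in 2. How often genes at large have such an interval was not counted, so these numbers have no background beside them.

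In blood endothelial-like cells the summed level was 168 CPM in control_4d, 135 in RA_4d, 162 in control_7d and 84.0 in RA_7d. The ratio was 0.519 (0.486 to 0.555) at 7 dpf and 0.805 (0.753 to 0.860) at 4 dpf, and each of the 8 genes was lowest in RA_7d. *Cyp51* went from 20.7 CPM in control_7d to 7.55 in RA_7d (ratio 0.365, interval 0.295 to 0.449), *Idi1* from 24.3 to 9.45 CPM (0.389, interval 0.321 to 0.469) and *Fdps* from 40.4 to 18.2 CPM (0.450, interval 0.391 to 0.517). *Fdft1* had the smallest difference, at 11.8 and 9.34 CPM (0.795, interval 0.636 to 0.993). Of the 7 members with at least 50 UMIs, 5 were called lower at 7 dpf, where 4.02% of genes were, and 1 at 4 dpf, where 2.13% were. *Lss*, with 31 UMIs over both 7 dpf libraries, did not enter the count. Capillary endothelial-like cells had a ratio of 0.538 (0.498 to 0.582) and venular endothelial-like cells 0.561 (0.493 to 0.638) at 7 dpf. Both ratios lie above the pooled 0.519. Venular cells were 281 of 854 blood endothelial-like cells in control_7d and 548 of 1146 in RA_7d, so the mix of classes enters the pooled ratio. No alternative with a fixed mix was run for these cells. In blood endothelial-like cells the 7 mesenchymal markers summed to 1927 CPM in control_7d and 2799 CPM in RA_7d, with 7 of 7 higher in RA, and the 4 erythroid markers to 317 and 665 CPM, with 4 of 4 higher. The 5 neutrophil markers summed to 133 and 61.7 CPM, with 2 of 5 higher in RA. The part of this RNA in the ratio was not tested.

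In macrophages and monocytes the summed level was 104 CPM in control_4d, 80.5 in RA_4d, 121 in control_7d and 74.5 in RA_7d. The ratio was 0.616 (0.576 to 0.658) at 7 dpf and 0.777 (0.736 to 0.820) at 4 dpf, so both RA libraries lay below both control libraries. *Sqle* (7.99 and 3.77 CPM, ratio 0.472, interval 0.350 to 0.630), *Fdps* (24.8 and 12.2 CPM, ratio 0.491, interval 0.417 to 0.577) and *Cyp51* (24.0 and 12.3 CPM, ratio 0.511, interval 0.434 to 0.6001) were called lower at 7 dpf. Thus 3 of 8 were called lower at 7 dpf, where 1.52% of genes were, and 0 of 8 at 4 dpf, where 2.75% were. *Mvd* had the smallest difference, at 12.2 and 10.4 CPM, and its ratio of 0.852 had an interval (0.703 to 1.03) that spans 1. By class, the ratio of the summed level at 7 dpf was 0.484 (0.416 to 0.563) in resident macrophage-like cells, 0.618 (0.535 to 0.714) in MHC class II macrophage-like cells, 0.680 (0.614 to 0.751) in Arg1-high macrophage-like cells and 0.757 (0.633 to 0.905) in monocyte-like cells. RNA from mesenchymal cells was present among the macrophages and monocytes at a low level: the 7 mesenchymal markers summed to 658 CPM in control_7d and 811 CPM in RA_7d, against 43104 and 61070 CPM in mesenchymal cells, and 6 of 7 were higher in RA. The 5 neutrophil markers summed to 632 CPM in control_7d and 296 CPM in RA_7d, with 1 of 5 higher in RA. The part of this RNA in the ratio was not tested.

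Tenocyte precursor-like cells came closest to the mesenchymal cells. Their summed level was 113 CPM in control_4d, 133 in RA_4d, 187 in control_7d and 83.6 in RA_7d, a ratio of 0.446 (0.401 to 0.496) at 7 dpf. Of the 7 members with enough UMIs, 7 were called lower, where 3.65% of genes were, led by *Sqle* (12.9 and 3.34 CPM) and *Fdps* (46.5 and 15.1 CPM). *Lss*, with 23 UMIs, was at 1.88 and 2.04 CPM. Mural-like cells, the pericytes and smooth muscle of vessels, had sums of 247, 182, 197 and 117 CPM in the same order of libraries, a ratio of 0.591 (0.530 to 0.658) at 7 dpf. Of 6 members with enough UMIs, 3 were called lower, where 3.29% of genes were, and *Fdps* was again among them, at 53.2 and 17.7 CPM, while *Cyp51* was at 24.9 and 23.6 CPM.

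Schwann-like cells, which use cholesterol for myelin, had the highest control level of the 12 cell types at 7 dpf. Their sum was 170 CPM in control_4d, 298 in RA_4d, 358 in control_7d and 203 in RA_7d, a ratio of 1.75 (1.26 to 2.43) at 4 dpf and 0.566 (0.493 to 0.652) at 7 dpf. At 7 dpf 4 of 6 members with enough UMIs were called lower, where 7.78% of genes were. Only 29 and 20 Schwann-like cells stood behind the values at 4 dpf. Lymphatic endothelial-like cells, 31 and 34 at 4 dpf, had 81.3, 158, 174 and 90.5 CPM, a ratio of 1.94 (1.31 to 2.94) at 4 dpf and 0.521 (0.427 to 0.635) at 7 dpf. There 2 members had enough UMIs at 7 dpf, *Hmgcs1* and *Fdps*, and 1, *Fdps* (61.4 and 27.9 CPM), was called lower, where 4.85% of genes were. In both cell types the direction at 4 dpf was opposite to that at 7 dpf.

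Dendritic-like cells had a sum of 205 CPM in control_4d, 181 in RA_4d, 259 in control_7d and 153 in RA_7d, a ratio of 0.591 (0.512 to 0.681) at 7 dpf. Of 4 members with enough UMIs, 2 were called lower, where 10.0% of genes were. *Fdps* was at 86.2 and 41.7 CPM.

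The members differed less, or not beyond counting error, at 7 dpf in the other 4 cell types. In muscle-like cells the sum was 208 CPM in control_4d, 104 in RA_4d, 153 in control_7d and 131 in RA_7d, a ratio of 0.502 (0.435 to 0.578) at 4 dpf and 0.858 (0.764 to 0.964) at 7 dpf, the reverse order of the times seen in mesenchymal cells. There 0 of 6 members were called lower at 7 dpf, where 10.4% of genes were. In osteoclast-like cells the ratio at 7 dpf was 0.917 (0.679 to 1.22), with 0 of 4 members called lower and 13.1% of genes, but RA_7d held only 27 of these cells. In neutrophil-like cells it was 1.08 (0.873 to 1.34), with 0 of 3 and 6.71%, and in T and natural killer-like cells 1.03 (0.834 to 1.28), with 0 of 4 and 4.41%. In 2 of these cell types 1 member was called higher, *Cyp51* in osteoclast-like cells (14.6 and 23.3 CPM) and *Idi1* in T and natural killer-like cells (10.5 and 16.9 CPM), where 17.5% and 4.23% of genes were called higher, and both ratio intervals span 1. At 7 dpf the intervals of all 4 lie wholly above that of mesenchymal cells (0.451 to 0.475), so the differences were smaller there as far as counting error goes. The intervals leave out differences among cells and libraries, and RA_7d held only 48 neutrophil-like cells. A difference of the mesenchymal size is therefore not excluded in these cell types.

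**Figure D4:**
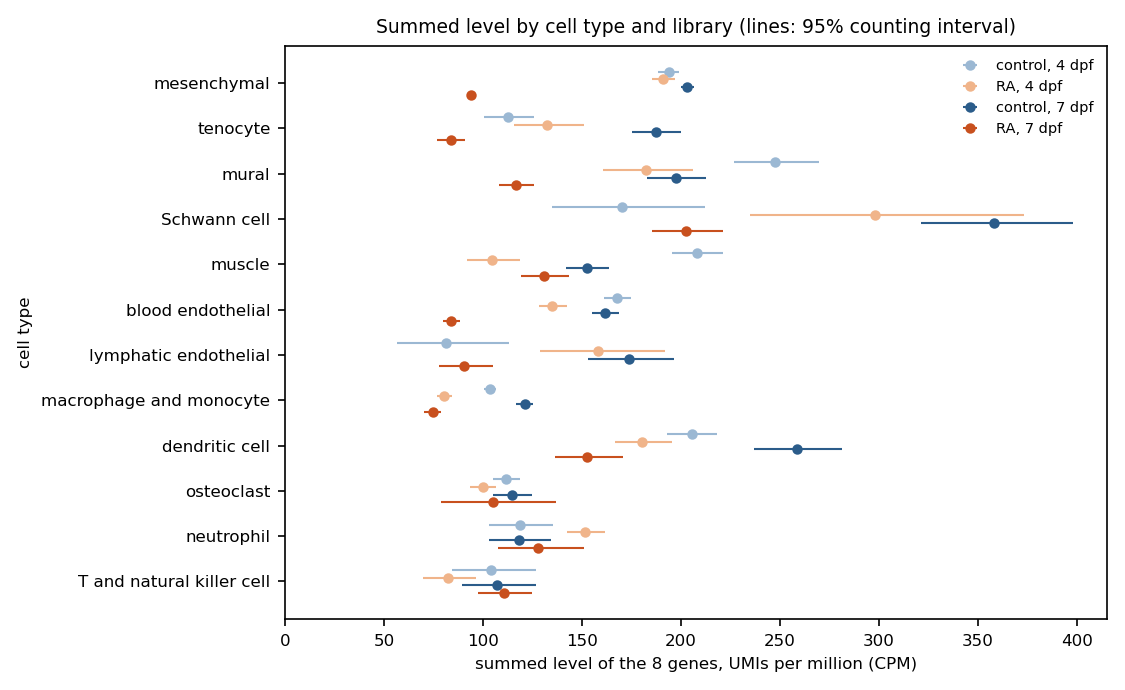
Summed level of the 8 genes (horizontal axis, CPM, from 0) in 12 cell types (rows) and 4 libraries (colours); lines are 95% counting intervals of 1 library each. The RA 7 dpf points lie below the control 7 dpf points in 10 rows, for instance at 94.1 against 203 CPM in mesenchymal cells, and not in neutrophil-like and T and natural killer-like cells.

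Gene by gene, and with the mesenchymal cells that led to the choice left out, the ratio interval of *Fdps* at 7 dpf lay below 1 in 8 of 11 cell types, against 6 for *Idi1* and *Cyp51*, 5 for *Hmgcs1* and *Sqle*, 4 for *Mvd* and *Fdft1* and 1 for *Lss*. No member had an interval above 1 in any of the 11. These numbers follow the counts behind each gene as well as the size of the difference, since *Lss* had the fewest UMIs. The share of all genes with an interval below 1 was not counted, so they are a description only.

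**Figure D5:**
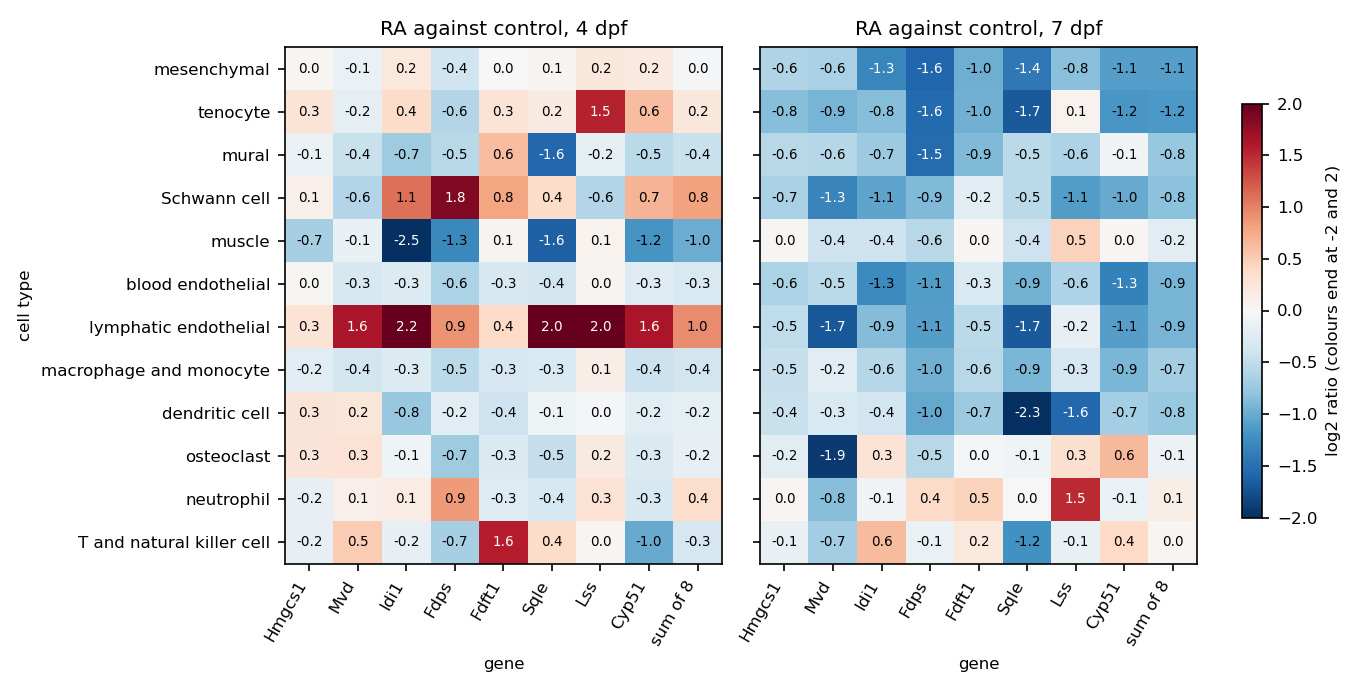
Log2 ratio of RA to control, log2(CPM + 1), for each of the 8 genes and their sum (columns) in 12 cell types (rows) at 4 dpf (left) and 7 dpf (right), blue for lower and red for higher in RA. At 7 dpf mesenchymal, mural, Schwann-like, both endothelial, macrophage and dendritic rows are below 0 for all 8 genes, and at 4 dpf the most values above 1 stand in the lymphatic endothelial row, which rests on 31 and 34 cells.

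Outside mesenchymal cells the rest of the pathway was lower in part at 7 dpf, and not always in the same genes. In blood endothelial-like cells 3 of 13 other cholesterol synthesis genes were called lower, where 4.02% of all genes were, among them *Msmo1* (16.6 and 7.89 CPM) and *Acat2* (8.96 and 5.20 CPM). The median over the list was -0.36. Of 9 genes of sterol efflux and storage, 4 were called higher there, where 4.80% of all genes were, among them *Abca1* (309 and 531 CPM) and *Mylip* (157 and 318 CPM). Of the same list 1 was called lower, *Ch25h* (36.8 and 17.7 CPM), where 4.02% of all genes were. *Scarb1* was higher in these cells (126 and 226 CPM), the opposite of mesenchymal cells. In macrophages and monocytes 2 of 13 other cholesterol synthesis genes were called lower, where 1.52% of all genes were, among them *Hsd17b7* (3.57 and 1.95 CPM). *Hsd17b7* was the exception in mesenchymal cells, where it was not lower. *Msmo1* was at 30.1 and 26.0 CPM in macrophages and monocytes, a ratio of 0.862, against 0.486 in mesenchymal cells. There *Abcg1* (163 and 247 CPM) and *Cyp27a1* (a log2 difference of 0.66) were called higher, where 3.19% of all genes were. Of 14 cell cycle genes, 13 were called lower in blood endothelial-like cells (median -1.18), where 4.02% of all genes were. In macrophages and monocytes 0 of 11 were called lower (median -0.15), where 1.52% of all genes were. The 8 members had a median of -0.56 in macrophages and monocytes.

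The genes most like the members in pattern were mostly genes of sterol balance. Likeness was the Pearson correlation of log2(CPM + 1) with the mean of the 8, each centred on its class, over 68 units of 1 class in 1 library, 19 classes in all. The units of a library share its preparation and depth. They include the mesenchymal classes at 7 dpf, the contrast that led to the choice, and the lists were written with earlier results known. These values are therefore descriptions. Of 8029 genes compared, the 10 most alike included *Srebf2* (0.82), *Stard4* (0.73), *Msmo1* (0.72), *Insig1* (0.70), *Sc5d* (0.68), *Gapdh* (0.67), *Eif6* (0.67), *Acta2* (0.66) and *Pkm* (0.66). *Srebf2*, *Stard4*, *Msmo1*, *Insig1* and *Sc5d* belong to the lists above. *Gapdh* and *Pkm* are glycolytic enzymes, *Eif6* acts in ribosome assembly, and *Acta2* encodes smooth muscle actin. In mesenchymal cells at 7 dpf *Gapdh* was at 889 CPM in control and 554 in RA, *Pkm* at 440 and 277 CPM, and *Acta2* at 335 and 65.0 CPM. Among the members, the correlation of each with the mean of the other 7 ran from 0.40 (*Lss*) to 0.86 (*Cyp51*).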

How the data were processed

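The authors ran Cell Ranger 7.0.1 on mm10 (10x Genomics 3′ chemistry, 10000 cells loaded) and deposited, for each of 4 libraries, a sparse matrix of unscaled UMI counts. The series text gives 4 calluses per pool, while the methods of the study give another number. All deposited values were whole numbers.

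Cells with 4000 to 50000 UMIs, 2000 to 7000 features and at most 8% mitochondrial UMIs were kept, the limits of the study's methods. They held 83405494 to 156567619 UMIs per library. Libraries were integrated in Seurat 5.3.0 (R 4.3.3) with 30 dimensions, and 15 principal components were clustered at a resolution of 0.4, the first in 0.1 steps to reach 20 clusters. A cluster was named "-like" when a marker list had a mean log2 level against all other cells of at least 1 (pseudocount 10 CPM), at least 3 markers were detected at 5 CPM or more and at least 1 stood among the 10 leading genes. These naming limits were chosen with the clusters in view, and 1 cluster was left unnamed. Doublets were kept (Scrublet in scanpy 1.11.5 called 592 cells, 2.32%), and an alternative left them out.

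Counts were summed per cell type and library and given as CPM. Levels have exact Poisson intervals, shares exact Clopper-Pearson intervals and ratios exact conditional intervals for a ratio of counts, all at 95%. Tables were made in Python 3.11.15 (numpy 2.4.6, scipy 1.17.1, pandas 2.3.3) and plots with matplotlib 3.10.9. The ratios and calls were tried on summed counts simulated with counting error only. Such counts hold no differences among cells or libraries, so they say nothing about those. Genes of fewer than 50 UMIs over both libraries were left out of counts of called genes.

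The members, lists, markers and alternatives were chosen with earlier results of these data known. Named genes are the members, genes of the lists (first those called at 7 dpf in mesenchymal cells) and the 10 genes most alike in pattern with at least 50 CPM in the highest unit, over units of at least 50 cells. *Ch25h*, *Acat2*, *Mylip*, *Cyp27a1* and other list genes named short of the threshold were picked as examples after their values were seen. Some genes of the lists are not reported here by name, but count in the list totals. Alternatives were the looser cell filter (at least 1000 UMIs, 500 features, at most 15% mitochondrial UMIs), no integration, resolution 1, doublets left out, list genes kept for clustering, TMM scaling, a pseudocount of 10 CPM, equal weight of cells, cells thinned to 4000 UMIs, the mix of classes, tenocyte precursor-like cells included, and genes with at least 10 UMIs. Leaving out cycling cells in another way was added after seeing the data.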

Additional observations from a re-analysis of the deposited data

Results flagged for a closer look

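For 3 cell types the summed level of the 8 genes was higher in RA than in control at 4 dpf and lower at 7 dpf, with both counting intervals away from a ratio of 1. The difference between the time points was not tested, because each time point has 1 library per condition. In fibroblast precursor-like cells the log2 difference of RA from control was 0.35 at 4 dpf and -0.85 at 7 dpf, which is -1.20 between the time points. All 8 genes were above 0 at 4 dpf and below 0 at 7 dpf in these cells. In Schwann-like cells the values were 0.80 and -0.82, which is -1.62 between them. In lymphatic endothelial-like cells they were 0.95 and -0.93, which is -1.88 between them. The Schwann-like and lymphatic endothelial-like values at 4 dpf rest on 20 to 34 cells per library, while the fibroblast precursor-like ones rest on 262 and 156 cells.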

How the results depend on the processing

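Main values in this section carry a pseudocount of 1 CPM, while the counting intervals beside them are of count ratios without one. The scales therefore differ, most for genes of low level. The summed level in mesenchymal cells at 7 dpf kept its direction under 14 of 14 alternatives, with log2 differences from -1.12 to -0.74. Against a counting interval of -1.15 to -1.07 around the main value of -1.10, it lay outside with list genes kept for clustering (-1.065), without the cells of a cycling cluster at resolution 1 (-1.067), with TMM scaling (-1.04), a pseudocount of 10 CPM (-1.03), equal weight of cells (-1.06), the class mix of the control library (-0.91) and classes weighted equally (-0.74). *Fdps* at 7 dpf was -1.59, beside an interval of -1.72 to -1.56 for the ratio without a pseudocount. It was -1.55 with list genes kept for clustering, -1.53 with TMM scaling and -1.53 without the cycling cluster, just outside the upper end of that interval. It was -1.24 with a pseudocount of 10 CPM, -1.46 with cells thinned to 4000 UMIs, -1.25 with the control class mix and -1.13 with equal classes. The count of members called lower, 8, was 4 with the pseudocount of 10 CPM and 5 with equal classes, where 1.52% and 2.47% of genes were called lower. It was 6 with TMM scaling, cells thinned to 4000 UMIs, the control class mix or cells with a cell cycle UMI left out. It was 7 at resolution 1, with list genes kept for clustering, with equal weight of cells or without the cycling cluster. The share of all genes called lower was not counted under these alternatives. With genes of at least 10 UMIs in the count, 8 members were called lower, where 4.15% of 20797 genes were. The summed level in mesenchymal cells at 4 dpf, -0.02 with an interval that spans 0, was -0.17 with the looser cell filter, -0.085 without the cells of a cycling cluster at resolution 1 and 0.16 without cells that hold a cell cycle UMI. In blood endothelial-like cells at 7 dpf the last alternative gave -0.80 in place of -0.94, and in macrophages and monocytes 10 of 10 alternatives gave values from -0.74 to -0.60, of which cells thinned to 4000 UMIs (-0.597) and equal weight of cells (-0.603) lay just outside the counting interval of -0.796 to -0.604. The cause of these shifts was not tested beyond what each alternative changes by construction. The clustering used held no cycling mesenchymal-like cluster, so leaving such a cluster out was not possible, and the 2 ways of leaving out cycling cells used in its place were chosen after seeing the data. No paired analysis was possible because each group has 1 library.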
